A study of Mus musculus with 6 samples.

Results

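The genes described here are the spindle checkpoint genes Bub1, Bub1b, Bub3, Mad2l1, Mad1l1 and Ttk and the chromosomal passenger genes Aurkb, Aurkc, Incenp and Birc5. They were taken by name, at a time when earlier results of these data, among them a call of Bub1b, were known. They make up 10 of the 14165 genes in a table of oocyte pools and 10 of the 54658 gene entries in a table of single oocytes. All 10 passed the filter on low counts in the pools, and all 10 had at least 5 CPM, the count of a gene per 1000000 gene counts of its library, in the mean of each pair of oocyte groups compared. The study sequenced polyadenylated RNA of mouse oocytes in metaphase II (MII), the arrest from which fertilisation releases the egg, with Smart-seq2, which copies whole transcripts into cDNA and amplifies them by PCR. One sample held 59 untreated single oocytes labelled aged and another 35 labelled young. The other 4 samples, also labelled young, each held 10 oocytes in a pool, 2 of them given siCtrl and 2 given siPlat, short interfering RNAs of which the second targets Plat. The labels gave no strain, no age in weeks and no animals, so p-values measure only the spread between these samples, which may be technical.

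The spindle checkpoint delays anaphase until every chromosome is attached to spindle microtubules. Ttk, also called Mps1, is the kinase that starts the signal at an unattached kinetochore, Bub3 brings Bub1 and the Bub1b product BubR1 there, and Mad1l1 brings Mad2l1. BubR1, Bub3 and Mad2l1 then bind Cdc20 and hold back the anaphase-promoting complex. The chromosomal passenger complex corrects wrong attachments through an Aurora kinase, Aurkb or the germline form Aurkc, which is held on the scaffold protein Incenp and carried to the centromere with Birc5 (survivin). In female meiosis this system guards against aneuploidy, whose frequency rises with maternal age, and mice with low BubR1 are known for early ageing.

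An MII oocyte makes almost no new RNA and works from stored messages, whose poly(A) tails are lengthened or shortened during maturation. A known signal for lengthening is the cytoplasmic polyadenylation element, written in DNA letters TTTTAT or TTTTAAT and read by Cpeb1, near the polyadenylation hexamer AATAAA or ATTAAA. Because the libraries measured polyadenylated RNA, the 3′ ends of the members are shown here. In the last 150 bases of 1 annotated coding transcript per gene (146 in Aurkc and 121 in Bub1, whose annotated 3′ untranslated regions are no longer), on the transcript strand, 4 of 10 members held the element, against 23.4% of 18538 coding genes. Those 18538 all had a 3′ untranslated region of at least 150 bases, a rule that Aurkc, with the element, and Bub1, without it, do not meet. The windows of those 4 follow, from GENCODE M21 on mm10, with the element and any hexamer inside the window in capitals.
Bub1b, chr2:118641557-118641584, plus strand: actgtgtaTTTTATAATAAAatagtttt
Aurkb, chr11:69051620-69051647, plus strand: gaacaacaTTTTATAATAAAgtcttaaa
Aurkc, chr7:7003040-7003067, plus strand: gttttctcTTTTATgaagtgatgttaat
Ttk, chr9:83872274-83872301, plus strand: tgcttttcTTTTATgcttttctgtaaat
In Bub1b and Aurkb the element ran straight into the hexamer, starting 27 and 37 bases before the annotated 3′ end. In Aurkc it started 44 bases and in Ttk 105 bases before that end. A match describes letters only, and which 3′ end the oocyte uses was not measured.

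The pools held 12142884 to 17475952 gene counts, and replicates differed by more than counting error (chi-square per degree of freedom 18.03 in siCtrl and 28.5 in siPlat). Plat itself had 441 and 439 CPM in the siCtrl pools against 51.4 and 39.0 CPM in the siPlat pools. Single oocytes held 2018226 to 11894782 gene counts. In 21 aged oocytes mitochondrially encoded genes took above 5% of gene counts (6.78 to 61.6%), and these libraries stood apart from the other 38 aged oocytes (at most 2.97%) and from the young (at most 1.92%). They are called high-share and low-share aged oocytes here, and each comparison of the ages is given with and without the high-share libraries. The 10 oocyte markers, such as Zp3 and Gdf9, summed to 24365 to 33407 CPM in young, 20948 to 32710 CPM in low-share and 751 to 4706 CPM in high-share oocytes. The 8 cumulus and granulosa markers summed to at most 105 CPM in any oocyte, with Fshr, Foxl2 and Amh at 0 in the young and high-share oocytes. In the pools the 10 oocyte markers summed to 20482 to 23635 CPM, and the 3 of 8 cumulus and granulosa markers in that table to 18.4 to 37.6 CPM. The 6 blood and immune markers reached at most 125 CPM and the 7 stroma, theca and endothelium markers at most 234 CPM in a single oocyte.

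The first comparison asked what changed in the pools when Plat was depleted. Of the checkpoint genes Bub1b fell 1.90-fold, while Bub1, Bub3 and Ttk did not pass the test and Mad2l1 stood higher without passing it. Bub1b was the single member called by edgeR at an adjusted p under 0.05, 1 of 10, against 3.54% of the 11136 genes tested, and none of the 4 passenger genes was called by edgeR, DESeq2 or limma-voom or had an unadjusted p under 0.05 by edgeR.

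Bub1b, which encodes the BubR1 subunit of the checkpoint complex, had 712 and 593 CPM in siCtrl against 375 and 312 CPM in siPlat. Both siPlat pools lay below both siCtrl pools, and the gap between the groups exceeded the gap within either. The mean fell from 653 ± 84.3 to 344 ± 44.4 CPM (SD, n = 2 in each group). Its log2 fold change was -0.93 (SE 0.17, edgeR adjusted p = 0.0146). The call rested on siCtrl 1: without it the log2 fold change was -0.78 and the edgeR adjusted p was 0.153, while it was called in all 8 other settings. In a pool, fewer oocytes of one kind and less RNA in each oocyte cannot be told apart. Of the 10 oocyte markers, edgeR called Gdf9, H1f8 and Zp1 lower and Dazl higher in siPlat, while the sum of all 10 was 22746 and 23635 CPM in siCtrl against 21569 and 20482 CPM in siPlat, and the part of this in the Bub1b result was not tested. Of these markers, named after their values were seen, Gdf9 had 2824 and 3017 CPM in siCtrl against 1545 and 1724 CPM in siPlat, H1f8 7635 and 8224 against 4444 and 5691 CPM, and Zp1 129 and 222 against 81.1 and 60.3 CPM. Dazl was at 1647 and 1870 CPM in siCtrl against 3566 and 3093 CPM in siPlat. Of the markers not called, Zp2, Zp3, Bmp15 and Nlrp5 had both siPlat pools below both siCtrl pools, Ddx4 had both above, and Oosp1 overlapped. Of all genes tested 25.8% lay below in this way and 23.5% above. Oosp1 and H1f8 had the highest levels of the 10 in every pool, so they weigh most in the sum.

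Mad2l1, the Cdc20-binding subunit, moved the other way, at 1354 and 1192 CPM in siCtrl and 1908 and 1708 CPM in siPlat. The groups did not overlap, but the log2 fold change of 0.51 (SE 0.14) did not pass by edgeR (adjusted p = 0.0846). It passed by DESeq2 (adjusted p = 0.0309) and by edgeR without siPlat 2 (adjusted p = 0.00982), and not in the other 7 settings (adjusted p up to 0.547 without siCtrl 2). Within each library, which needs no scaling, there were 0.526 and 0.497 Bub1b counts per Mad2l1 count in siCtrl and 0.196 and 0.183 in siPlat.

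Bub1, the kinase that marks centromeric chromatin, was at 115 and 111 CPM in siCtrl against 88.1 and 85.0 CPM in siPlat, with no overlap. Its log2 fold change of -0.39 (SE 0.17) did not pass by edgeR (adjusted p = 0.2499). Bub3, the partner of Bub1 and BubR1, was at 212 and 227 CPM in siCtrl against 239 and 199.96 CPM in siPlat, and the groups overlapped. Ttk was at 140 and 142 CPM in siCtrl against 146 and 136 CPM in siPlat, with siPlat on both sides of siCtrl. Mad1l1, the Mad2l1 anchor, was the lowest of the members per kilobase of exon too, with 11.8 and 14.3 CPM in siCtrl against 8.62 and 16.7 CPM in siPlat, where the siPlat pools differed from each other by more than the groups did.

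The passenger kinase gene Aurkc was at 165 and 154 CPM in siCtrl against 129 and 122 CPM in siPlat, without overlap (log2 fold change -0.35, SE 0.16, edgeR adjusted p = 0.284). Its relative Aurkb was lower (5.92 CPM per kilobase of exon in siCtrl, against 105 for Aurkc), with 14.8 and 20.1 CPM in siCtrl against 12.2 and 16.0 CPM in siPlat, and the groups overlapped. The scaffold gene Incenp was at 52.5 and 59.3 CPM in siCtrl against 41.7 and 45.2 CPM in siPlat, again without overlap (log2 fold change -0.36, SE 0.19, edgeR adjusted p = 0.338). Birc5 was at 540 and 662 CPM in siCtrl against 668 and 690.04 CPM in siPlat. In all, both siPlat pools lay below both siCtrl pools for 4 of 10 members (Bub1, Bub1b, Aurkc and Incenp), against 25.8% of genes tested, and above them for Mad2l1 and Birc5, against 23.5%. The median log2 fold change was -0.17 over the members and -0.03 over all genes tested.

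**Figure D1:**
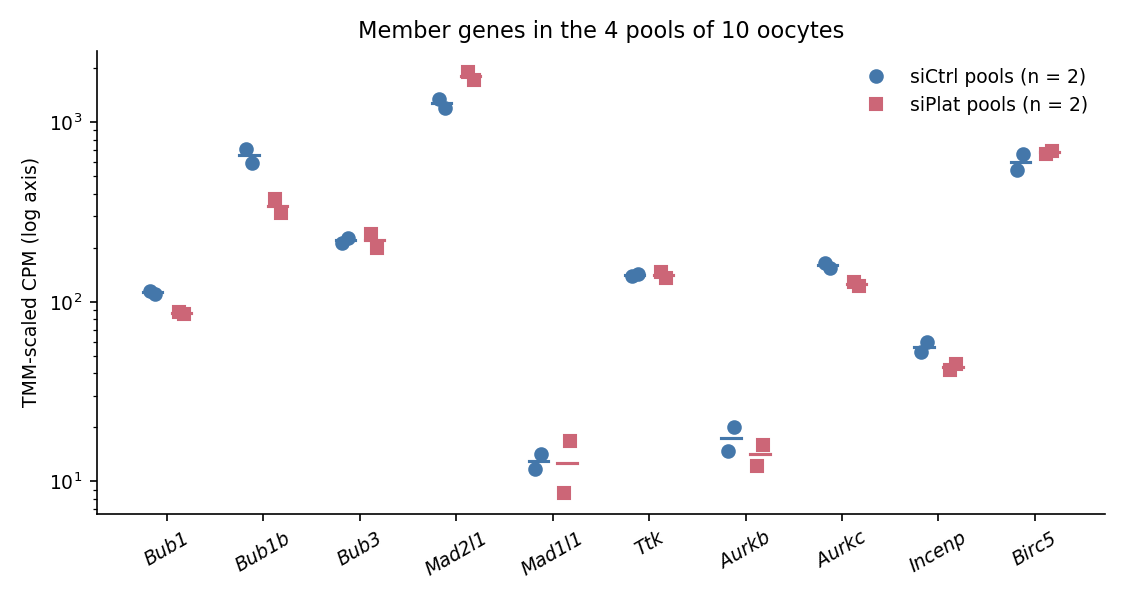
TMM-scaled CPM on a log axis of the 10 genes in each pool, with siCtrl as circles, siPlat as squares and the mean of 2 pools as a bar. Bub1b lies at 593 to 712 CPM in siCtrl and 312 to 375 CPM in siPlat, Mad2l1 lies higher in siPlat, and Bub3, Ttk, Mad1l1 and Aurkb overlap between the groups.

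Of 19 further genes of the same pathway, none was called by edgeR in the pools; 4 had an unadjusted p under 0.05, against 18.8% of genes tested. The list held Cdc20, Mad2l1bp, Trip13, Zw10, Zwilch, Kntc1, Spdl1, Knl1, Zwint, Ndc80, Tpr, Cdca8, Haspin, Sgo1, Sgo2a, Plk1, Aurka, Ppp1cc and Bod1. The 4, named after their values were seen, were Cdc20, the target of the checkpoint complex, Zw10, which recruits Mad1l1 and dynein, Sgo1, a protector of cohesion, and the phosphatase gene Ppp1cc. Cdc20 was at 99.9 and 86.4 CPM in siCtrl against 53.1 and 61.7 CPM in siPlat (log2 fold change -0.70, SE 0.19, edgeR adjusted p = 0.0691). Zw10 was at 53.3 and 50.2 CPM in siCtrl against 30.5 and 30.6 CPM in siPlat (-0.76, SE 0.19, edgeR adjusted p = 0.0565). Sgo1 was at 131 and 121 CPM in siCtrl against 182 and 169 CPM in siPlat (0.49, SE 0.16, edgeR adjusted p = 0.134). Ppp1cc was at 3.02 and 2.12 CPM in siCtrl against 16.98 and 5.10 CPM in siPlat (2.09, SE 0.53, edgeR adjusted p = 0.0662), so the siPlat pools differed by more than the gap to siCtrl. Without siPlat 1 its log2 fold change was 0.98 (edgeR adjusted p = 0.361), and without siPlat 2 it was 2.72 (edgeR adjusted p = 7.04e-05). DESeq2 and edgeR without a filter each called Cdc20, Zw10 and Ppp1cc, and limma-voom called 0 of the 19.

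Levels of different genes were compared per kilobase of exon, as CPM per kb. In the 35 young oocytes, from summed counts, Bub1b (533 CPM per kb) and Aurkc (432) stood far above the rest. Mad2l1 (71.4), Birc5 (49.1) and Bub3 (29.0) followed, and Ttk (12.8), Aurkb (10.8), Incenp (10.7), Bub1 (7.27) and Mad1l1 (6.46) were lowest. Over oocytes Bub1b ran from 354 to 720 CPM per kb and Aurkc from 365 to 535, so these neighbours overlapped, and so did Mad2l1 with Birc5, Birc5 with Bub3 and the 5 lowest genes with each other. Aurkc ran from 365 CPM per kb upwards and the third gene, Mad2l1, only up to 109. In siCtrl pools the order differed: Birc5 (177 CPM per kb), Bub1b (153) and Mad2l1 (152), which overlapped, then Aurkc (105), Bub3 (31.4), Ttk (28.6) and Bub1 (26.0), with Incenp (12.9), Aurkb (5.92) and Mad1l1 (3.57) last. The annotated exons of Mad2l1 include a 3′ untranslated region of 6802 bases, so its level per kb is lower than it would be for a shorter transcript.

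The other question was how the members differ with maternal age. Each age was 1 sample, so there is no replicate check; CPM comes from summed counts, and its exact Poisson interval (95% confidence) covers counting error only. With a pseudocount of 1 CPM, 1 of 10 members, Ttk, was past 2-fold with all aged oocytes, against 3.25% of 8303 genes, and 1, Bub1, without the high-share libraries, against 1.84% of 8413 genes. Within the low-share oocytes the members split: Bub1, Ttk, Birc5 and Incenp stood above young, Bub1b below it, and Bub3, Mad2l1, Mad1l1, Aurkb and Aurkc within 1.09-fold of it.

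Bub1 was at 19.1 CPM in the lowest, 30.9 in the median and 42.5 in the highest young oocyte, and at 36.5, 71.9 and 120 CPM in low-share aged oocytes. Of 38 low-share oocytes, 37 lay above the whole young range. From summed counts Bub1 was at 31.7 CPM (31.0 to 32.3) in young and 72.9 CPM (71.8 to 73.9) in low-share oocytes, a log2 ratio of 1.18 or 2.26-fold, and at 59.4 CPM (0.89) with all aged oocytes.

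Ttk, the kinase at the head of the pathway, was at 40.6, 61.2 and 89.0 CPM in the lowest, median and highest young oocyte and at 81.8, 117 and 169 CPM in low-share oocytes. Here 34 of 38 lay above the young range. The log2 ratio was 0.91 (63.02 to 120 CPM, 1.88-fold) without the high-share libraries, and the ratio was 2.00-fold with them.

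Birc5 was at 113, 150.4 and 389 CPM in young and at 146, 247 and 999 CPM in low-share oocytes, with a log2 ratio of 0.82, and of 0.58 with all aged oocytes. Of 38 low-share oocytes, 6 lay above the young range. Incenp was at 15.6, 41.3 and 85.5 CPM in young and 30.3, 65.8 and 132 CPM in low-share oocytes, where 6 of 38 lay above the young range. Its log2 ratio was 0.46, and 0.07 with all aged oocytes.

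Bub1b was at 1514, 2280 and 3077 CPM in young and at 1394, 1841 and 2706 CPM in low-share oocytes. The groups overlapped widely, with 1 of 38 below the young range, and the log2 ratio was -0.26 (2280 to 1908 CPM). With all aged oocytes it was -0.71 (1397 CPM). Per Bub1 count, which needs no scaling, Bub1b had 38.6 to 111 counts in young (median 74.6) and 15.5 to 61.9 in low-share oocytes (median 26.6). There 35 of 38 low-share oocytes lay below the young range, but Bub1 itself was 2.26-fold higher in them. Per Mad2l1 count, 2 of 38 lay below the young range.

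The other 5 members differed little between young and low-share oocytes. Aurkc had a log2 ratio of -0.01, Mad2l1 of 0.03, Mad1l1 of 0.08, Bub3 of 0.11 and Aurkb of 0.12, beside a median of 0.08 over all 8413 genes. With all aged oocytes they were lower than in young, Aurkc at -0.45, Bub3 at -0.30, Aurkb at -0.28, Mad1l1 at -0.15 and Mad2l1 at -0.10, beside a median of -0.07 over 8303 genes. Aurkc was also the steadiest member, at 556 to 814 CPM in young (coefficient of variation 9.89%) and 440 to 860 CPM in low-share oocytes (14.3%).

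When counts were divided by those of the ERCC spike-ins, synthetic RNAs added to each lysate, the median of all genes moved to -0.71 for low-share oocytes, a shift that by construction is nearly the same for every gene. Bub1 was then at 0.36, Ttk at 0.09, Birc5 at -0.01, Incenp at -0.36 and Bub1b at -1.09 on the log2 scale. Incenp was thus higher in low-share oocytes per gene count and lower per spike-in count, and Bub1 was higher on both scales. Ttk and Birc5 were higher per gene count but differed little per spike-in count (Ttk 1.06-fold higher, Birc5 at 0.99 of young). ERCC counts ran from 70141 to 427387 among the young oocytes alone, and the part of this in these ratios was not tested. With all aged oocytes the median of all genes per spike-in count was -1.43 and all 10 members were lower than in young, Ttk at -0.46, Bub1 at -0.55, Birc5 at -0.89, Incenp at -1.35 and Bub1b at -2.18, so Bub1, Ttk, Birc5 and Incenp changed sign between the scales. Of the 19 pathway genes, none was past 2-fold between the ages on gene totals with a pseudocount of 1 CPM, with or without the high-share libraries. Their medians were -0.44 over 18 genes with all aged oocytes and -0.06 over 19 without the high-share libraries. Named after their values were seen, Zw10 came near it without those libraries (38.5 against 19.1 CPM in young, log2 ratio 0.98). Cdc20 did so with all aged oocytes (231 against 461 CPM, -0.99). With a pseudocount of 0.1 CPM 1 of 19 was past it, higher, without those libraries (2.07% of genes). With the mean over oocytes 2 of 18 were, lower, with all aged oocytes (1.89% of genes).

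**Figure D2:**
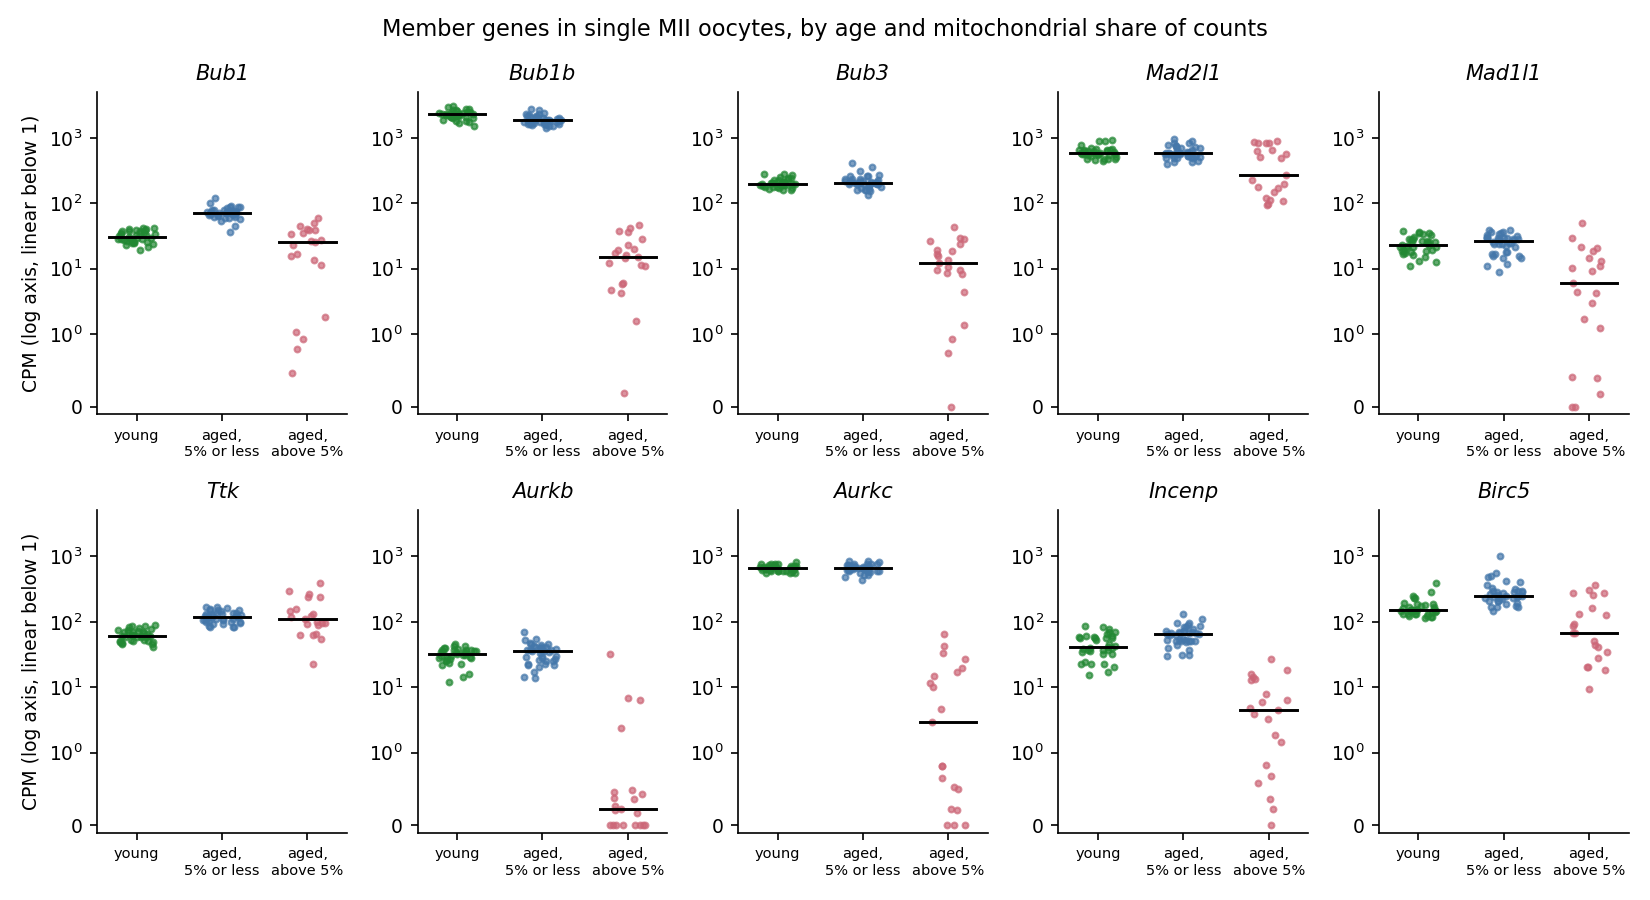
CPM per oocyte (log axis, linear below 1 CPM) for each gene in 35 young, 38 low-share aged and 21 high-share aged oocytes, with the median as a bar. Bub1 and Ttk are higher in low-share than in young oocytes, and Bub1b, Bub3 and Aurkc of all 21 high-share oocytes lie below every other oocyte.

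Of the members, 9 of 10 had a larger log2 ratio, in size, between the high-share and low-share aged oocytes than between low-share and young oocytes, and Ttk a smaller one (0.30 against 0.91). Of all genes, 1.84% were past 2-fold between low-share and young oocytes, against 48.6% lower and 8.06% higher between the aged groups. The share of all genes with such a larger ratio, or without overlap between the aged groups, was not counted. Bub1b and Aurkc were almost lost from the high-share oocytes. From summed counts Bub3, Aurkb and Incenp were lower by 8.18-fold to 14.8-fold, Bub1, Mad1l1 and Birc5 by 2.36-fold to 3.16-fold and Mad2l1 by 1.47-fold. Ttk was 1.23-fold higher in sum, but not by the median over oocytes. In the direction of lower levels 8 of 10 members were past 2-fold, against 48.6% of 8087 genes, and none was past it in the other direction (8.06% of genes). The members had a median log2 ratio of -2.25, and all genes one of -0.94. The mitochondrial share alone lowers every nuclear gene; per nuclear gene count the medians were -1.79 and -0.48, and 6 of 10 members were past 2-fold lower, against 38.8% of genes. Mad2l1 was then at 594 against 621 CPM of nuclear counts, 1.05-fold lower, Mad1l1 and Birc5 were each 1.68-fold lower, and Ttk was 1.73-fold higher. Per ERCC count all 10 members were past 2-fold lower, Ttk included (-1.30), against 83.6% of genes.

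Bub1b was at 0.188, 15.1 and 47.1 CPM in the lowest, median and highest high-share oocyte, against 1394 to 2706 CPM in the low-share oocytes. The groups did not come near each other, and the summed levels were 17.3 and 1908 CPM, a 110-fold difference. Aurkc was at 0, 2.94 and 65.99 CPM in the high-share against 440 to 860 CPM in the low-share oocytes, 44.5-fold lower in sum, with 3 of 21 oocytes at 0 counts. The 2 libraries of the smallest mitochondrial share in the group, 6.78 and 6.80%, held 846 of its 1416 Aurkc counts, and without them the other 19 were at 7.09 CPM, 92.5-fold lower. In these libraries 3 counts, the limit that a count of 0 allows, stand for 0.347 to 1.49 CPM.

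Bub3 was at 0, 12.3 and 43.7 CPM against 133 to 411 CPM, also without overlap, and 14.8-fold lower. Incenp was at 0, 4.48 and 27.2 CPM against 30.3 to 132 CPM, without overlap, and 8.18-fold lower, or 12.4-fold without the same 2 libraries. Aurkb was at 0 counts in 8 of 21 high-share oocytes and at most 32.2 CPM, with 20 of 21 below the low-share range of 13.8 to 69.8 CPM, and 14.6-fold lower. A single library held 122 of the 229 Aurkb counts of the group, and without it Aurkb was at 1.16 CPM, 29.99-fold lower. Leaving out the libraries with most counts of a gene favours a larger fold, here as for Aurkc and Incenp.

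Ttk stood at 22.5, 112 and 396 CPM in the high-share oocytes, against 81.8, 117 and 169 CPM in the low-share oocytes. It spread to both sides, with 5 of 21 below and 5 above the low-share range, and its log2 ratio from summed counts was 0.30. With the median over oocytes all 10 members, Ttk included, were lower in the high-share oocytes. Without the 2 libraries with most Ttk counts, a choice that favours a lower level, it was at 125 against 120 CPM. Mad2l1 was at 95.7, 272 and 898 CPM against 397, 579 and 960 CPM, with 11 of 21 below the low-share range and a log2 ratio of -0.55. Birc5 was at 9.27, 67.5 and 369 CPM (log2 ratio -1.23), Mad1l1 at 0, 6.02 and 49.8 CPM (-1.16) and Bub1 at 0.467, 25.4 and 60.1 CPM (-1.62). Bub1 in the high-share oocytes was at 1.85 CPM or less in 5 libraries and at 11.6 CPM or more in the other 16.

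Within a library there were 1.62 to 6.26 Bub1b counts per Mad2l1 count in low-share oocytes (median 3.40) and 1.87 to 6.58 in young (median 3.75). In high-share oocytes there were 0.000692 to 0.427 (median 0.0453), so the 21 oocytes did not overlap with the others. Between 7385 and 13849 genes were detected in high-share libraries and between 14724 and 17623 in low-share ones, and the oocyte markers fell with them as given above; the part of these in the members' levels was not tested. Of the pathway list, 14 of 18 genes were past 2-fold lower, against 48.6% of all genes, and none higher (median log2 ratio -1.92, against -0.94 over all genes). Per nuclear gene count 12 of 18 were, against 38.8%. Examples, named after their values were seen, were the kinase gene Plk1 (222 to 6.34 CPM), the kinetochore gene Ndc80 (166 to 7.59 CPM), Cdc20 (310 to 17.8 CPM) and Cdca8, the fourth passenger subunit borealin (450 to 144 CPM).

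**Figure D3:**
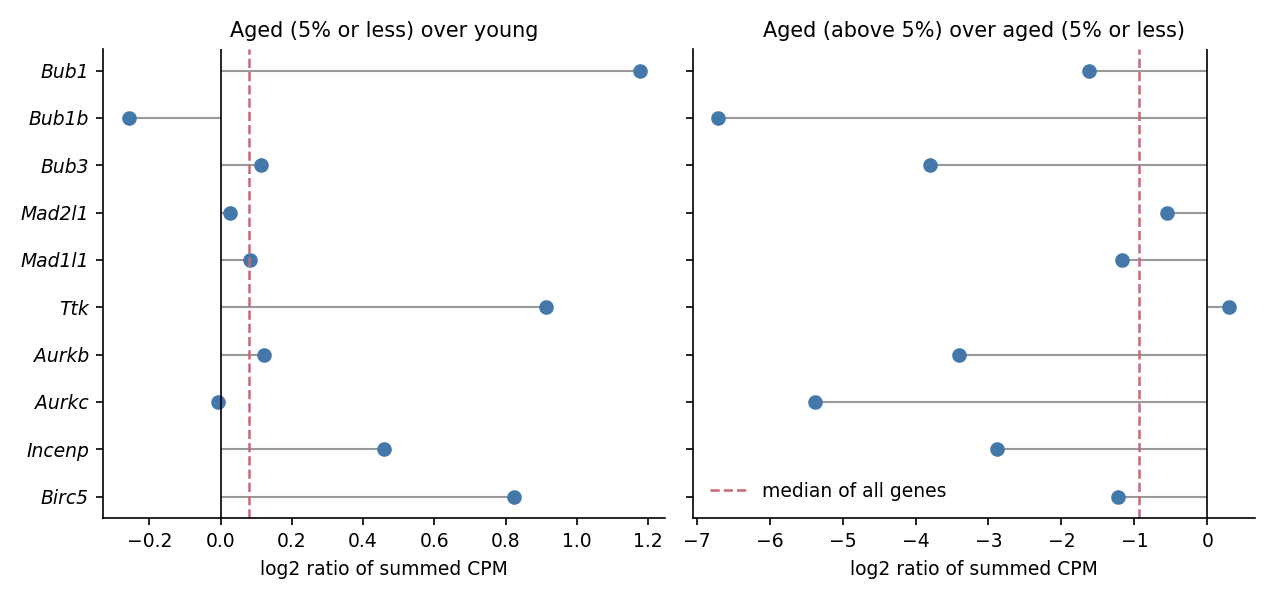
Log2 ratio of summed CPM for each gene, low-share aged over young oocytes on the left and high-share over low-share aged oocytes on the right, on different horizontal scales, with the median of all genes dashed (0.08 and -0.94). On the left Bub1 lies at 1.18 and Bub1b at -0.26, and on the right Bub1b lies at -6.70 and Ttk at 0.30.

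Among oocytes of one group the members did not move as one unit. Over the 35 young oocytes the 45 pairs of members had Spearman correlations of CPM from -0.46 to 0.84 (median -0.01), and over the 38 low-share aged oocytes from -0.79 to 0.74 (median -0.08). These are descriptions over oocytes of 1 sample, which are not replicates. Their depth differed, from 5480050 to 11894782 gene counts in young and from 3399781 to 9502184 in low-share oocytes. In young oocytes the highest pair was Bub3 with Mad2l1 (0.84) and the lowest Bub1b with Bub3 (-0.46). Bub3 and Mad2l1 also followed the total count of the library (-0.59 and -0.50) and its mitochondrial share (0.58 and 0.51), so depth and this pair moved together, and the part of depth in it was not tested.

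In low-share aged oocytes Bub3 with Birc5 (0.74), Mad1l1 with Incenp (0.70), Ttk with Incenp (0.66) and Bub3 with Mad2l1 (0.66) were the highest pairs. Incenp with Birc5 (-0.79), Mad2l1 with Incenp (-0.76), Ttk with Birc5 (-0.75) and Bub3 with Incenp (-0.74) were the lowest. So oocytes with more Bub3, Mad2l1 and Birc5 tended to have less Incenp and Ttk. Total counts in these oocytes followed Bub3 by 0.27, Mad2l1 by 0.17, Birc5 by 0.05, Incenp by -0.18 and Ttk by 0.05. Oocytes with neighbouring numbers were alike, in runs picked after their values were seen. Oocytes aged_41 to aged_49 had Incenp at 50.4 to 132, Ttk at 124 to 169 and Birc5 at 146 to 293 CPM. Those from aged_51 to aged_54 had 30.3 to 37.4, 81.8 to 106 and 312 to 506 CPM. What the numbering stands for is not given, and its part in these correlations was not tested.

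The spread of every member over oocytes was larger than a Poisson count of reads gives. That reference takes each read as a separate draw, whereas PCR copies of the same molecule are each counted here. A larger spread can thus be foreseen for almost any gene, and the comparison cannot tell differences between oocytes from amplification. The share of all genes with a larger spread was not counted, and the part of amplification in it was not tested. In young oocytes the coefficient of variation ran from 9.89% for Aurkc, where counting gives 1.34%, to 41.5% for Incenp, where it gives 5.09%. In low-share oocytes Birc5 had the widest spread, 51.6%, and in high-share oocytes Aurkb, 293%, where 1 library held 32.2 CPM and the median was 0.233 CPM.

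**Figure D4:**
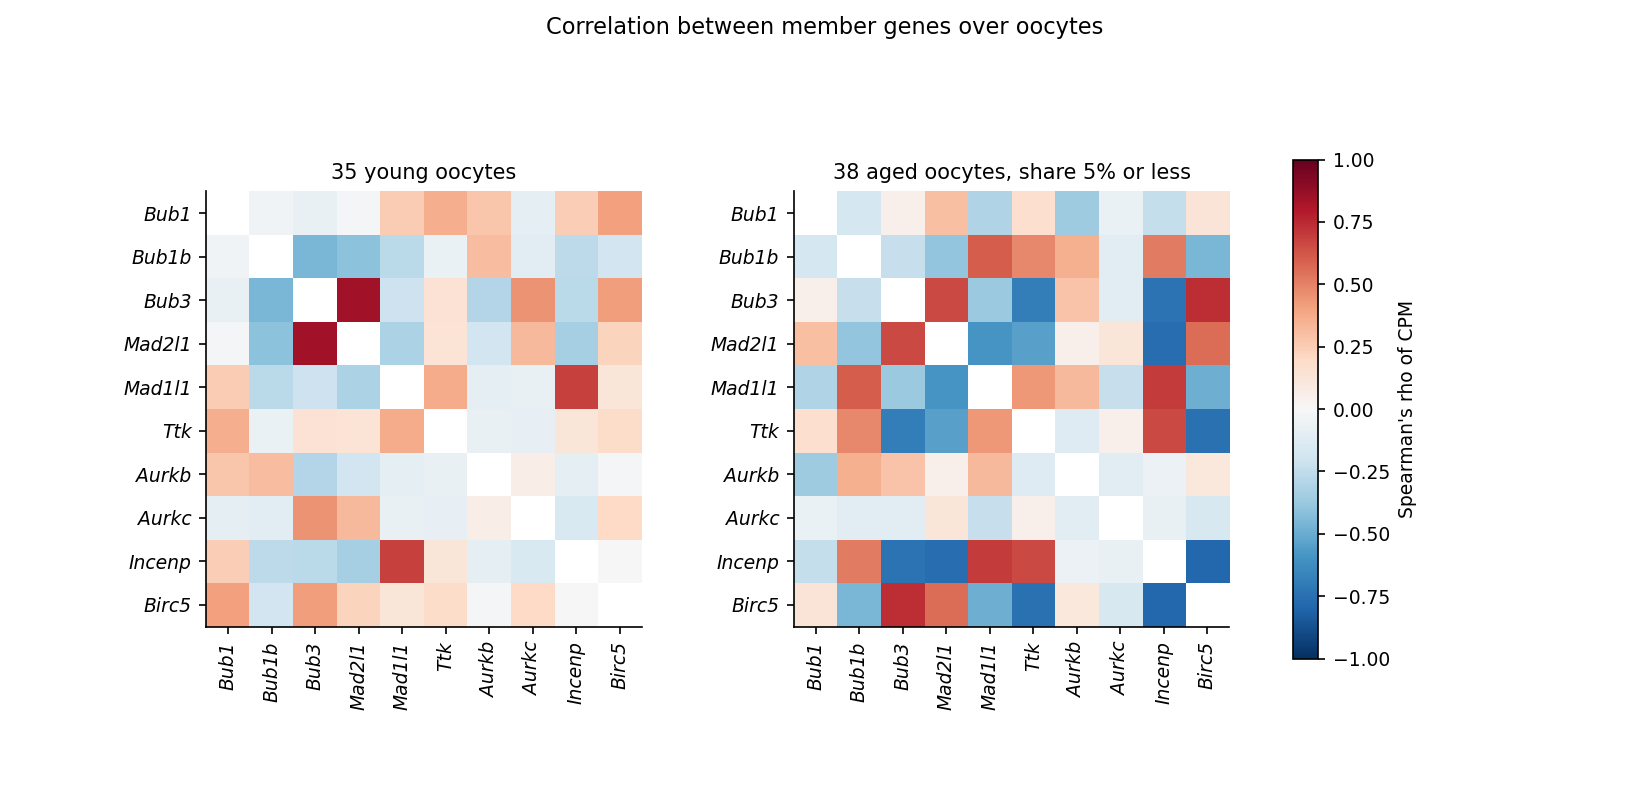
Spearman correlation of CPM for each pair of members over 35 young oocytes on the left and 38 low-share aged oocytes on the right, from blue (-1) to red (1). Bub3 with Mad2l1 is high in both (0.84 and 0.66), and the blue cells of Incenp with Birc5, Bub3 and Mad2l1 on the right reach -0.79.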

How the data were processed

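The authors deposited raw counts of reads per gene, 1 table for 4 pools and 1 for 94 single oocytes with 92 ERCC spike-ins; 1 further column without a name held no values. STAR 2.7.10b, HTSeq 0.13.5 and mm10 are named per the submitters' processing notes, without roles; annotation and strand setting are not given in the sources used here. Without strand, reads of Mad1l1 and its antisense gene Gm16121 (37 shared bases) cannot be told apart, nor those of Cdc20, Zwilch, Tpr, Cdca8, Plk1 and Sgo2a and the genes they overlap. How reads shared by the related Aurkb and Aurkc were counted is not given.

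Pools were tested with edgeR 4.0.16 in R 4.3.3 (quasi-likelihood, robust, TMM, minimum count 10 and total 15), Benjamini-Hochberg adjusted over all genes tested, and the script was tested on simulated data. DESeq2 1.42.0, limma-voom (limma 3.58.1), RLE factors, no filter, a replicate block and leaving out each pool were alternatives; a lone pool is then assumed to vary like the other group. Same-numbered pools did not deviate together (r = -0.06 across genes). CPM of oocytes excludes ERCC, and log2 ratios add 1 CPM. PCR reads without molecular identifiers are not independent, so intervals may be too narrow. Exon lengths came from GENCODE M21 (GRCm38, the assembly mm10 names), which held all members by symbol. Named genes were the 10 members, pathway genes called or past 2-fold between ages, the 3 most like Bub1b, and Plat; exceptions are marked. The members and lists were chosen with earlier results of these data known.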

Additional observations from a re-analysis of the deposited data

How the results depend on the processing

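In the pools, Bub1b was lower in every setting, and its call ended without siCtrl 1. The count of called members was 0 to 2 when 1 pool was left out and 2 by DESeq2, and that of all called genes 157 to 1145 and 683, against 394. Called pathway genes, 0 by edgeR, were 0 to 5 when 1 pool was left out (5 without siPlat 2), 3 by DESeq2, 3 without the filter and 1, Ppp1cc (adjusted p = 0.0411), with the replicate block; the block called 273 genes and kept Bub1b (log2 fold change -0.93, adjusted p = 0.0133). Bub3, Mad1l1 and Ttk, near 0, changed sign: Bub3 was at 0.0129 with RLE factors and with DESeq2, and with a pool left out Bub3 ran from -0.14 to 0.13, Mad1l1 from -0.58 to 0.36 and Ttk from -0.0529 to 0.0652. The cause was not tested.

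For aged against young oocytes, 1 member was past 2-fold, against 3.25% of genes. Per nuclear count 2 were, each higher, against 3.58% of genes higher and 0.36% lower. Per ERCC count 7 were, each lower, against 81.1% of genes lower. With the mean over oocytes there were 0, against 2.85% of genes higher and 1.89% lower. With a pseudocount of 5 CPM there were 0, against 1.43% and 0.35%. Per ERCC count Ttk turned to -0.46, Bub1 to -0.55, Birc5 to -0.89 and Incenp to -1.35. The median of the members, -0.13, became 0.12 without the high-share libraries, -0.00501 per nuclear count, -1.55 per ERCC count (all genes -1.43), -0.21 with the mean and -0.0824 with the median over oocytes. Without the high-share libraries it was 0.12, and -0.70 per ERCC count, 0.16 with the median over oocytes and 0.0629 at a limit of 10%. High-share against low-share, -2.25, became -1.79 per nuclear count, -3.66 per ERCC count (all genes -2.34), -2.78 with the median over oocytes, -2.34 and -1.95 with pseudocounts of 0.1 and 5 CPM, and -2.55 at a limit of 10%; a limit of 3% gave the same split as 5%. Members past 2-fold lower, 8 (48.6% of genes), were 6 per nuclear count (38.8%) and 10 per ERCC count (83.6%). They were 9 with the median over oocytes (61.8% of genes) and 7 with a pseudocount of 5 CPM (43.1%). Leaving out the 1 or 2 libraries with most counts of a gene was chosen after seeing the data. It moved Aurkb, Aurkc and Incenp by over 1.5 times, and a lower level is the direction that such a choice favours. Spike-in scaling rests on an equal ERCC amount in each lysate, which was not measured on its own. ERCC counts lay at 70141 to 110006 or at 184609 to 427387 in young oocytes, with overlapping gene totals. In low-share oocytes they lay at 117428 to 431162. So an equal amount is not shown, and the part of this in the per-ERCC ratios was not tested. Ttk per gene count ran from 40.6 to 80.1 CPM in young oocytes with 70141 to 110006 ERCC counts. In those with 184609 to 427387 it ran from 49.9 to 89.0 CPM. The part of this split in the ratio of Ttk between the ages was not tested. Depth limits the members near 0 in high-share oocytes; Aurkb, Aurkc, Mad1l1, Incenp and Bub3 had libraries at 0 counts.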

Other observations

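The proportions of the members differed between the young single oocytes and the siCtrl pools, which are also labelled young. There were 38.6 to 111 Bub1b counts per Bub1 count in the 35 young oocytes, and 6.18 and 5.36 in the siCtrl pools. Bub1b counts per Mad2l1 count were 1.87 to 6.58 in young oocytes and 0.526 and 0.497 in the siCtrl pools. Aurkc counts per Aurkb count lay closer together, at 13.9 to 59.2 (median 19.9) in young oocytes and 11.1 and 7.68 in the siCtrl pools. The tables also differ in the pooling and in the siCtrl treatment, so these cannot be told apart.

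The 3 genes whose CPM followed Bub1b most closely over the 35 young oocytes, of 3624 genes with at least 20 CPM in all 4 groups, were Ss18 (Spearman correlation 0.83), Wdr47 (0.82) and Spg20 (0.74). The median over those genes was -0.08. Over the 38 low-share aged oocytes, which did not choose them, the values were 0.66, 0.60 and 0.66, ranks 92, 176 and 91 of the 3624. In the pools, where Bub1b fell, none of the 3 was called by edgeR, with log2 fold changes of -0.09, -0.54 and 0.06 (edgeR adjusted p = 0.867, 0.1502 and 0.908). Bub1b in young oocytes also followed the total count (0.35) and the mitochondrial share (-0.41).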
